A study of Homo sapiens with 21 samples.

Results

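PDYN, IGLL1, KCNJ11, DAB2IP, PHF24, MATN4, CAB39L, SAMD11 and PTX3 are 9 of the 20423 genes in the deposited table. They were selected on being lower in IRF2BP2 knockdown libraries than in controls, so their values in that contrast are given as a description and were not tested. THP1, the cell line used, was derived from a human acute myeloid leukemia and resembles monocytes. Messenger RNA was sequenced, and the values are counts that the authors normalized for library size.

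The knockdown groups were IRF2BP2 shRNA1 and IRF2BP2 shRNA2, with 3 libraries of each hairpin in the pLKO.1 vector, set against an shRNA control with 2 libraries. The knockout groups were ATF7 KO clone 1, ATF7 KO clone 2, JDP2 KO clone 1 and JDP2 KO clone 2, with 2 libraries each, set against a KO control with 2 libraries. There was also 1 wild-type (WT) library without either vector named in its label. Each knockout clone came from a single cell after Lenti-CRISPRv2 delivery, so a clone is 1 editing event carried by all its libraries. Of the 21 labelled libraries, 2 that are marked low quality (shRNA control replicate 2 and WT replicate 1) were not analysed here. The labels do not say whether libraries of a group came from separate cultures. The p-values below therefore describe variation between libraries, part or all of which may be technical.

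IRF2BP2 is a nuclear cofactor first known as a partner of the repressor IRF2, while ATF7 and JDP2, leucine zipper factors of the AP-1 superfamily, bind AP-1 sites and cyclic AMP response elements (CRE). The 9 genes come from different families, and most of them are better known from other tissues than from monocytes. They comprise secreted proteins (PDYN, MATN4, PTX3), a pre-B cell receptor subunit (IGLL1), a potassium channel pore (KCNJ11), intracellular signalling proteins (DAB2IP, CAB39L, PHF24) and a polycomb-type nuclear protein (SAMD11).

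Reads in genes numbered 28.7 to 60.2 M (mega) per library. IRF2BP2 shRNA1 replicate 3, IRF2BP2 shRNA2 replicate 3 and JDP2 KO clone 1 replicate 2 stood apart, each with over 20 percent of its genes at a distance of more than 2-fold to the cross-library median. The targeted message IRF2BP2 was at 9456, 11109.7 and 9802 normalized counts in the shRNA1 libraries, at 12587, 16649 and 25651 in the shRNA2 libraries, and at 16973 and 18382 in the shRNA control libraries. The library labelled shRNA2 replicate 3 thus lay above both controls, against its label, and the 2 other shRNA2 libraries lay below them. Messages of ATF7 (363 to 645 in the ATF7 KO libraries, against 299.9 and 537 in KO control) and of JDP2 (3158 to 5693 in the JDP2 KO libraries, against 3438 and 5085 in KO control) overlapped their controls, and message level does not show whether an edited gene makes protein. All 10 monocytic markers examined passed the filter on low values, 1 of them was called higher in the knockdown, and MS4A1, a mature B cell marker, stayed under 10 normalized counts in every library.

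Promoter sequence is shown for the genes whose window held one of the motifs searched. RefSeq (GRCh38.p14) gave 14 windows, from 250 bases before to 50 bases after an annotated start, for 8 of the 9 genes. The motifs, searched on both strands, were the AP-1 site TGACTCA, the CRE core TGACGT, the interferon-response (IRF) type motif GAAANNGAA, the NF-kB core GGGANTTTC and the TATA box TATAAA. Positions count from -1, the base before the start. PDYN held the IRF-type motif at 2 places on the opposite strand (-209 to -201 and -81 to -73), CAB39L held the CRE core at -56 to -51 of an internal start, and PHF24 held a TATA box at -140 to -135 of an internal start. The sequences below run 5′ to 3′ along the gene, with the matches in capitals.
PDYN upstream, chr20:1994286-1994535, minus strand, 250 bases: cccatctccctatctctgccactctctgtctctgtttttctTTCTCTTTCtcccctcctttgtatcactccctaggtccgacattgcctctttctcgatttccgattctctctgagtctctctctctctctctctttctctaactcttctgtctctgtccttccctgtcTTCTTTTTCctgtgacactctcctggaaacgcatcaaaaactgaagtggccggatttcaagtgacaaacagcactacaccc
PHF24 upstream, chr9:34957237-34957486, plus strand, 250 bases: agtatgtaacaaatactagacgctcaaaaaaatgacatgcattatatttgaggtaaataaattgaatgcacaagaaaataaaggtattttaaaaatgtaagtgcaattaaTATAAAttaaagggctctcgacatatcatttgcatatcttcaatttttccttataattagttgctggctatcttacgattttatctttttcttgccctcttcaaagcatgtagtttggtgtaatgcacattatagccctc
CAB39L, chr13:49401583-49401608, minus strand, 26 bases around the CRE core: cgcattcttgTGACGTtacaggactg
The AP-1 site and the NF-kB core were in the windows of 0 of the 8 genes, which says only that these letters are not in these windows. Over all 27305 genes of the table, 6.05 percent held the AP-1 site, 9.64 percent the CRE core, 9.86 percent the IRF-type motif, 1.56 percent the NF-kB core and 14 percent the TATA box, so 1 gene in 8 for a motif is a description and was not tested.

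In the knockdown libraries all 9 genes lay below both shRNA control libraries in each of the 6 libraries, which follows the way they were chosen. Over the whole table, 11.2 percent of the genes had the 6 knockdown libraries below both shRNA controls, and 0.251 percent of 12738 tested genes were called lower (limma, Benjamini-Hochberg adjusted p under 0.05). Those 32 lower calls rest on both controls, since 0 genes were called lower without shRNA control replicate 1 and 1 gene, IGLL1, without replicate 3, while 605 were called lower against all 5 controls. Against all 5 controls the knockdown libraries were lower throughout for 8 of the 9 genes, against 5.2 percent of all genes. Against all 13 other libraries they were lower throughout for 7 of the 9, against 2.34 percent of all genes. The exceptions were CAB39L in both counts and PHF24 in the second. Both counts rest on the knockdown libraries that chose the genes, so they are a description and no separate evidence.

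**Figure D1:**
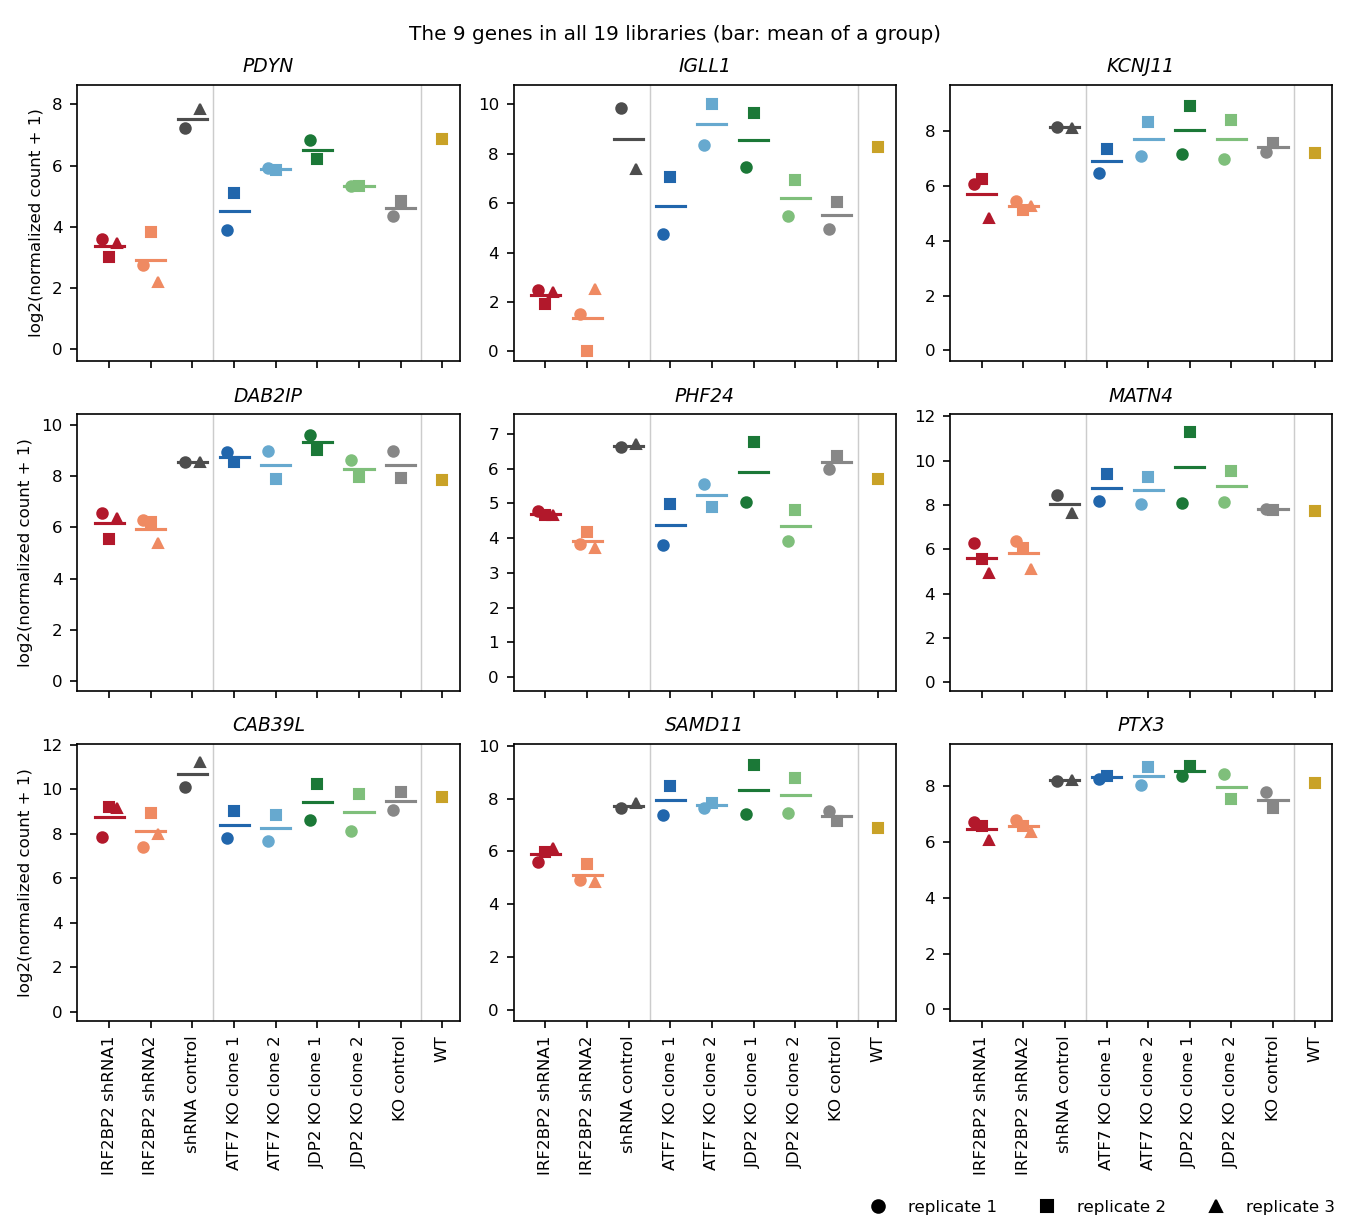
Each panel plots log2(normalized count + 1) of 1 gene (y axis) in every library by group (x axis), with the symbol giving the replicate number and the bar the group mean. The 6 knockdown libraries sit below both shRNA control libraries in all 9 panels, and for CAB39L and PHF24 they overlap the knockout libraries.

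Among the secreted proteins, PDYN encodes prodynorphin, the precursor of dynorphin opioid peptides that act on the kappa opioid receptor (gene at chr20:1978756-1994285, minus strand). It was at 11.0, 7.11 and 10.1 normalized counts in the shRNA1 libraries, at 5.69, 13.1 and 3.62 in the shRNA2 libraries, and at 148 and 229.6 in the shRNA control libraries. These knockdown values rest on 3 to 14 reads a library. The mean was 22.4-fold lower than the shRNA control mean, with a log2 change of -4.40 ± 0.61 (SE). PDYN-AS1 lies antisense to PDYN, and without a stated strand setting for the counting the reads of the pair cannot be told apart.

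The control sets themselves differed for PDYN. The KO control libraries held 19.6 and 27.6 normalized counts and the WT library 114, so the shRNA control mean was 8.004-fold the KO control mean. PDYN was at 14.0 and 33.6 in ATF7 KO clone 1, at 60.2 and 56.4 in ATF7 KO clone 2, at 114 and 72.7 in JDP2 KO clone 1 and at 39.7 and 39.3 in JDP2 KO clone 2. All 8 knockout libraries were thus below both shRNA controls and above every knockdown library, and 7 of them were above the lower KO control library.

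MATN4 encodes matrilin-4, an extracellular matrix adaptor that in mouse restrains the expansion of stressed blood stem cells (chr20:45293450-45308684, minus strand). It was at 77.0, 46.2 and 29.5 in the shRNA1 libraries, at 81.5, 65.5 and 33.8 in the shRNA2 libraries, and at 344 and 199 in the shRNA control libraries. The KO control (225 and 219) and WT (211) libraries lay within the range of the shRNA controls. In the knockouts it was at 287 and 667 in ATF7 KO clone 1, at 267 and 613 in ATF7 KO clone 2, at 271 and 2527 in JDP2 KO clone 1 and at 284 and 738 in JDP2 KO clone 2. Every knockout library exceeded both KO control libraries, and the libraries of a clone differed by up to 9.33-fold, in JDP2 KO clone 1, whose replicate 2 is among the 3 libraries that stand apart. RBPJL overlaps MATN4, so reads from the shared stretch cannot be assigned further.

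PTX3 is a long pentraxin, a soluble pattern recognition protein that myeloid cells secrete on inflammatory stimulation (chr3:157436850-157443633, plus strand, within VEPH1). It was at 104, 93.8 and 66.8 in the shRNA1 libraries, at 109.95, 94.7 and 82.0 in the shRNA2 libraries, and at 292 and 299.9 in the shRNA control libraries. Its mean was 3.22-fold lower than the shRNA control mean, the smallest fold of the 9. The KO control libraries (223 and 149) and the WT library (275) were lower than both shRNA controls but above every knockdown library. The ATF7 KO libraries held 309 and 328 (clone 1) and 262 and 411 (clone 2), all above both KO controls. The JDP2 KO libraries held 327 and 421 (clone 1) and 344 and 186 (clone 2), of which 3 of 4 were above both KO controls.

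IGLL1 encodes the lambda-5 chain, which pairs with VPREB1 as the surrogate light chain of the pre-B cell receptor (chr22:23573125-23580290, minus strand). It was at 4.59, 2.84 and 4.31 in the shRNA1 libraries, at 1.90, 0 and 4.82 in the shRNA2 libraries, and at 925 and 166 in the shRNA control libraries. The library listed at 0 allows up to 3 reads, or 3.02 normalized counts, and the other knockdown libraries held 2 to 6 reads, a limit that covers counting error only. The controls lay far apart, so the 177-fold lower mean has little precision. The log2 change was -6.80 ± 0.89 (SE). Its sequence is close to immunoglobulin lambda genes and IGLL5, so how the counting split shared reads is uncertain.

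IGLL1 was also the gene of the 9 that varied most outside the knockdown. The KO control libraries held 30.4 and 65.8 and the WT library 306, so that the shRNA control mean was 11.3-fold the KO control mean. It was at 25.9 and 133 in ATF7 KO clone 1, at 331 and 1029.9 in ATF7 KO clone 2, at 177 and 817 in JDP2 KO clone 1 and at 43.5 and 121 in JDP2 KO clone 2. The lowest of these 13 libraries, at 25.9, was still above the highest knockdown library, at 4.82. Summed B lineage markers overlapped between knockdown (921 to 2480) and shRNA control (1667 and 1789) libraries, with 0 of the 5 markers that passed the filter called, and their part in the IGLL1 values was not tested.

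KCNJ11 encodes Kir6.2, the pore of the ATP-sensitive potassium channel that couples metabolism to membrane potential (chr11:17385248-17389346, minus strand). It was at 66.96, 75.3 and 27.3 in the shRNA1 libraries, at 42.7, 34.3 and 37.4 in the shRNA2 libraries, and at 288 and 275 in the shRNA control libraries. The KO control (152 and 188) and WT (148) libraries lay between these groups. ATF7 KO libraries held 87.3 and 164 (clone 1) and 137 and 321 (clone 2), and JDP2 KO libraries 142 and 479 (clone 1) and 126 and 342 (clone 2). The knockout libraries therefore spread to both sides of the KO control, and each of them was above every knockdown library.

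DAB2IP is a Ras GTPase-activating scaffold that restrains Ras and NF-kB signalling (chr9:121567074-121785530, plus strand). It was at 93.6, 46.2 and 82.6 in the shRNA1 libraries, at 76.8, 72.6 and 41.0 in the shRNA2 libraries, and at 378 and 373 in the shRNA control libraries. KO control libraries held 509 and 241, the WT library 232, ATF7 KO libraries 501 and 372 (clone 1) and 509 and 234 (clone 2), and JDP2 KO libraries 794 and 528 (clone 1) and 402 and 248 (clone 2). Every library outside the knockdown thus held at least 232, and the shRNA control mean (376) was about equal to the KO control mean (375), a ratio of 1.00.

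CAB39L encodes MO25-beta, a scaffold that holds the tumour suppressor kinase LKB1 in its active complex (chr13:49308650-49444064, minus strand). It was at 233, 589.7 and 569.8 in the shRNA1 libraries, at 169.7, 495 and 249.7 in the shRNA2 libraries, and at 1089.7 and 2421 in the shRNA control libraries. The KO control libraries (535 and 934) overlapped the knockdown libraries, and the WT library held 803. ATF7 KO libraries held 219.9 and 517 (clone 1) and 201 and 455 (clone 2), all within the range of the knockdown libraries, and JDP2 KO libraries held 386 and 1210.2 (clone 1) and 278 and 889.6 (clone 2). For CAB39L the level of the knockdown libraries was thus also reached outside the knockdown, and the shRNA control was the highest group, at 2.39-fold the KO control mean.

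PHF24 is a PHD-finger protein of the brain that in mouse was described as a partner of the inhibitory G protein (chr9:34665607-34982544, plus strand, a span that also holds CCL19 and CCL21). It was at 26.6, 24.2 and 24.4 in the shRNA1 libraries, at 13.3, 17.1 and 12.1 in the shRNA2 libraries, and at 97.5 and 103 in the shRNA control libraries. KO control libraries held 63.0 and 81.0 and the WT library 50.9. ATF7 KO libraries held 12.9 and 30.4 (clone 1) and 46.3 and 28.8 (clone 2), and JDP2 KO libraries 31.6 and 108 (clone 1) and 14.1 and 26.9 (clone 2). Of these 8 knockout libraries 7 lay below both KO controls, the exception being JDP2 KO clone 1 replicate 2.

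SAMD11 is a sterile alpha motif protein that in mouse photoreceptors joins a polycomb repressive complex (chr1:923923-944574, plus strand, overlapping NOC2L). It was at 47.7, 62.5 and 69.0 in the shRNA1 libraries, at 29.4, 45.4 and 27.7 in the shRNA2 libraries, and at 198 and 225 in the shRNA control libraries. KO control (183 and 142) and WT (119) libraries lay between these groups. ATF7 KO libraries held 167 and 353 (clone 1) and 199 and 228 (clone 2), and JDP2 KO libraries 169 and 617 (clone 1) and 175 and 440 (clone 2). The lowest library outside the knockdown, at 119, was above the highest knockdown library, at 69.0.

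The fold below the shRNA control mean was 5.95 for KCNJ11, 5.46 for DAB2IP, 5.12 for PHF24, 4.88 for MATN4, 4.57 for CAB39L and 4.50 for SAMD11. On the log2 scale the 9 changes had a median of -2.36, beside -0.03 over all tested genes. Without the 2 knockdown libraries that stand apart the log2 changes were -7.13 for IGLL1, -4.24 for PDYN, -1.97 for MATN4 and -1.55 for PTX3, and those of the other 5 genes lay from -2.41 (KCNJ11) to -2.21 (SAMD11).

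**Figure D2:**
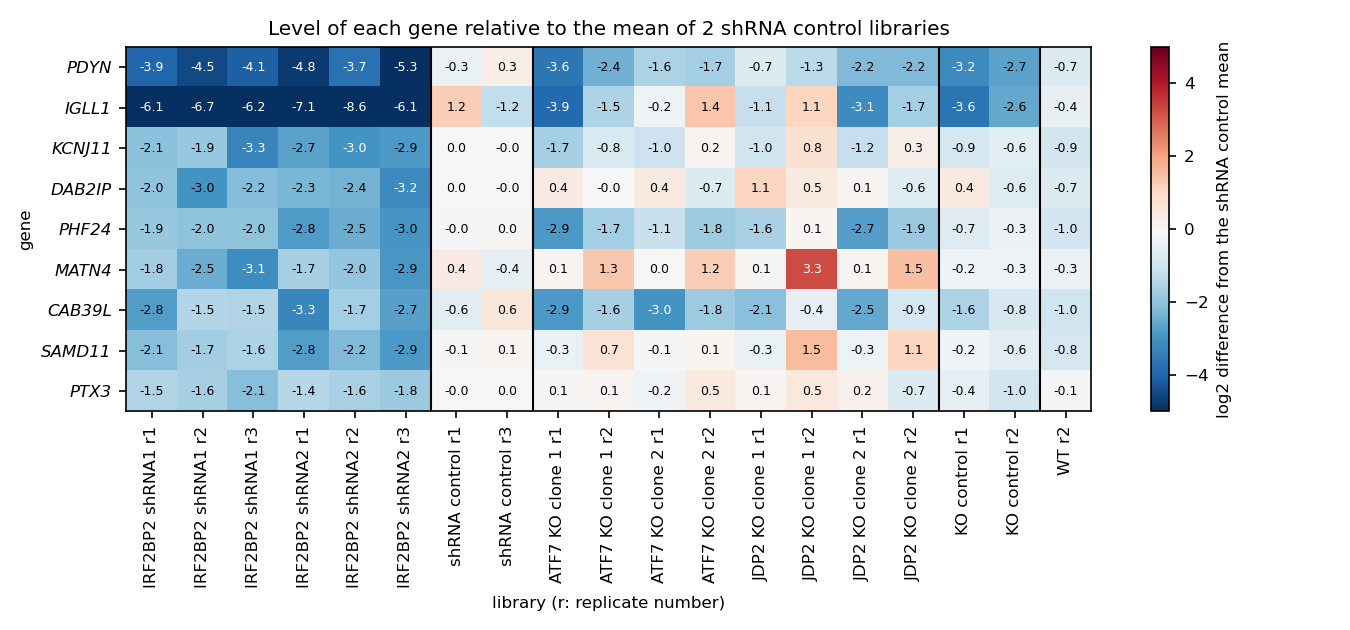
The colour and printed number give the log2 difference of each gene (rows) in each library (columns) from the mean of the 2 shRNA control libraries on the log2(normalized count + 1) scale, and the colour scale ends at 5 in either direction. The knockdown columns are below 0 for all 9 genes, and PDYN and CAB39L are also below 0 in every knockout, KO control and WT column.

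The authors' deposited table for the knockdown, whose fold changes are relative to all 5 controls, called all 9 genes lower, beside 6.84 percent of its 13048 tested genes. It rests on the same knockdown libraries that chose the genes, so these calls follow the choice and are no separate evidence. In the authors' deposited table the log2 changes ran from -2.62 for PDYN to -1.32 for CAB39L, with IGLL1 at -1.96. Fitted with limma against the same 5 controls, the log2 changes were -5.49 for IGLL1 and -3.09 for PDYN, and those of the other 7 genes lay from -2.31 (DAB2IP) to -1.39 (PTX3). The deposited change was thus smaller than the fitted one with the same controls for all 9 genes, and by the most for IGLL1. The cause was not tested.

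The 2 hairpins were also compared with each other. Hairpins had equal weight in the choice of genes, but the choice favoured genes low with both. A lack of calls between hairpins is therefore not independent of the choice. None of the 9 differed between shRNA2 and shRNA1 (limma, lowest adjusted p 0.589), and 0 percent of 12738 genes were called, with 917 genes at an unadjusted p under 0.05 and 25 called by DESeq2. The intervals leave room for sizeable differences. For SAMD11 the shRNA2 libraries (29.4, 45.4 and 27.7) were all below the shRNA1 libraries (47.7, 62.5 and 69.0), a log2 difference of -0.81 with a 95% interval of -1.67 to 0.06. For PHF24 they were also all below (12.1 to 17.1 against 24.2 to 26.6), with a difference of -0.80 and an interval of -1.81 to 0.22. For PTX3 the difference was 0.13, with an interval of -0.61 to 0.87, the narrowest of the 9.

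The shRNA2 libraries, which had the higher IRF2BP2 message, had the lower mean log2 level for 7 of the 9 genes, the exceptions being MATN4 and PTX3, and also DAB2IP (0.18) without the libraries that stand apart. Log2 differences from the shRNA control in shRNA2 and shRNA1 libraries were -4.61 and -4.18 for PDYN, -7.26 and -6.34 for IGLL1, and -2.86 and -2.42 for KCNJ11. Against the KO control those of PDYN were only -1.68 and -1.24, and those of CAB39L -1.35 and -0.72.

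The question put to the knockouts was whether loss of ATF7 or JDP2, which the series title sets against IRF2BP2, moved these genes. In neither knockout was any of the 9 called. The KO control libraries belong to the controls used to choose the genes, so the control side of these tests is not independent of the choice. Both knockouts share these 2 libraries. Libraries of both clones of a knockout were pooled and counted as separate. The p-values and intervals of the knockout comparisons thus take the library as the unit, not the clone as an editing event. For ATF7 KO against KO control the lowest adjusted p was 0.637 (limma, 0.25 percent of 13208 genes called), and for JDP2 KO it was 0.298 (0.674 percent called). At an unadjusted p under 0.05 there were 936 and 2217 genes, of which 1 and 0 were among the 9.

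PTX3 had the lowest p in both. Its means were 327 ± 62.1 in ATF7 KO (SD, n = 4 libraries from 2 clones) and 319.5 ± 98.0 in JDP2 KO (n = 4 libraries from 2 clones). In KO control the mean was 186 ± 52.3 (n = 2 libraries). The log2 change was 0.82 for ATF7 KO, with a 95% interval of 0.07 to 1.57 (limma, adjusted p 0.637). For JDP2 KO it was 0.75, with an interval of -0.00088 to 1.497 (limma, adjusted p 0.298). All 4 ATF7 KO libraries and 3 of 4 JDP2 KO libraries were above both KO control libraries. MATN4 had a log2 change of 0.92 in ATF7 KO, with an interval of -0.69 to 2.53, and of 1.47 in JDP2 KO, with an interval of -0.15 to 3.08.

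PHF24 and CAB39L were the genes with negative changes in both knockouts. For PHF24 the log2 change was -1.37 in ATF7 KO, with an interval of -2.96 to 0.22, and -1.05 in JDP2 KO, with an interval of -2.64 to 0.54. For CAB39L it was -1.14 in ATF7 KO, with an interval of -2.40 to 0.11, and -0.28 in JDP2 KO. KCNJ11 was at -0.09 in ATF7 KO and 0.46 in JDP2 KO, and PDYN, IGLL1, DAB2IP and SAMD11 had positive changes in both against the KO control. The intervals of IGLL1 were the widest, at -0.69 to 4.75 in ATF7 KO and -0.85 to 4.59 in JDP2 KO.

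**Figure D3:**
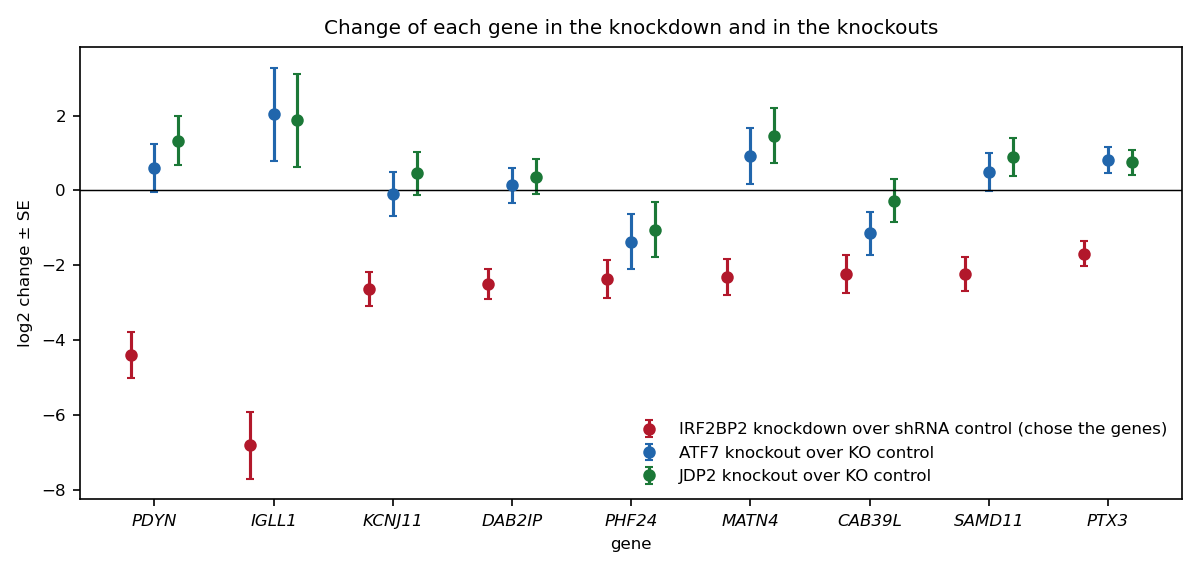
Points give the log2 change of each gene (x axis) in IRF2BP2 knockdown over shRNA control, ATF7 KO over KO control and JDP2 KO over KO control, and bars the standard error. The knockdown points, which chose the genes, lie between -6.80 and -1.69, while the knockout points lie between -1.37 and 2.03 and 0 of them passed the test.

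In the authors' deposited tables the same knockouts were set against all 5 controls. The authors' deposited table for ATF7 called 0 of the 9 genes, beside 0.315 percent of its genes, and had CAB39L at -1.39 ± 0.38 (SE) with an adjusted p of 0.0554. PDYN, positive against the KO control, was at -1.05 in the authors' deposited table for ATF7 and at -0.57 in that for JDP2, and IGLL1 was at 0.13 and -0.07, with 0 of these 4 changes called. The authors' deposited table for JDP2 called 1 of the 9, beside 12.1 percent of its genes, namely MATN4 at 1.56 ± 0.39 (SE) with an adjusted p of 0.00297. The JDP2 libraries include clone 1 replicate 2, at 2527 normalized counts of MATN4, and the table was not recomputed without it. Against the KO control and without that library, the log2 change of MATN4 in JDP2 KO was 0.79 ± 0.49 (SE, limma, adjusted p 0.503), that of IGLL1 was 1.11, that of PTX3 was 0.60 and that of PHF24 was -1.60 (limma, adjusted p 0.277).

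JDP2 KO and ATF7 KO were also compared with each other, where neither side was used in choosing the genes. None of the 9 was called (limma, lowest adjusted p 0.999, 0 percent of 13208 genes called, with 289 genes at an unadjusted p under 0.05 and 9 called by DESeq2). The widest interval was that of IGLL1, at -2.38 to 2.06 around -0.16, and the narrowest that of PTX3, at -0.69 to 0.54 around -0.08. CAB39L had a difference of 0.87, with an interval of -0.16 to 1.89. Without JDP2 KO clone 1 replicate 2 the difference was 0.52 for CAB39L and -0.92 for IGLL1.

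Between clones of 1 knockout the differences were largest for IGLL1. ATF7 KO clone 2 (331 and 1029.9) was above ATF7 KO clone 1 (25.9 and 133) by 3.28 ± 0.94 on the log2 scale, with a 95% interval of 1.20 to 5.37, and this did not pass the adjustment (limma, adjusted p 0.297, 0.303 percent of 13208 genes called). DESeq2 called it (adjusted p 0.0395). JDP2 KO clone 2 (43.5 and 121) was below JDP2 KO clone 1 (177 and 817) by a log2 difference of -2.37, with an interval of -4.46 to -0.29 (limma, adjusted p 0.993, 0.136 percent called). Without clone 1 replicate 2, the library at 817, this difference was -1.27 ± 0.94 (SE, limma, adjusted p 0.999). Libraries of the clones did not overlap for IGLL1 in either knockout. This is a separation of 2 libraries from 2, and the share of all genes that show it was not determined.

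PDYN differed in the same directions. ATF7 KO clone 2 exceeded clone 1 by 1.38, with an interval of 0.07 to 2.69, and JDP2 KO clone 2 differed from clone 1 by -1.19, with an interval of -2.50 to 0.13. Neither was called (adjusted p 0.709 and 0.993, limma). For the other genes the clone differences in ATF7 KO ran from -0.32 for DAB2IP to 0.84 for PHF24, and in JDP2 KO from -1.54 for PHF24 to -0.22 for SAMD11. All 9 genes had a lower mean log2 value in JDP2 KO clone 2 than in JDP2 KO clone 1, whose replicate 2 stands apart. Without that library KCNJ11, MATN4, CAB39L and SAMD11 had positive differences, at 0.54, 0.76, 0.37 and 0.72, and those of PDYN and PHF24 were -1.50 and -0.67.

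**Figure D4:**
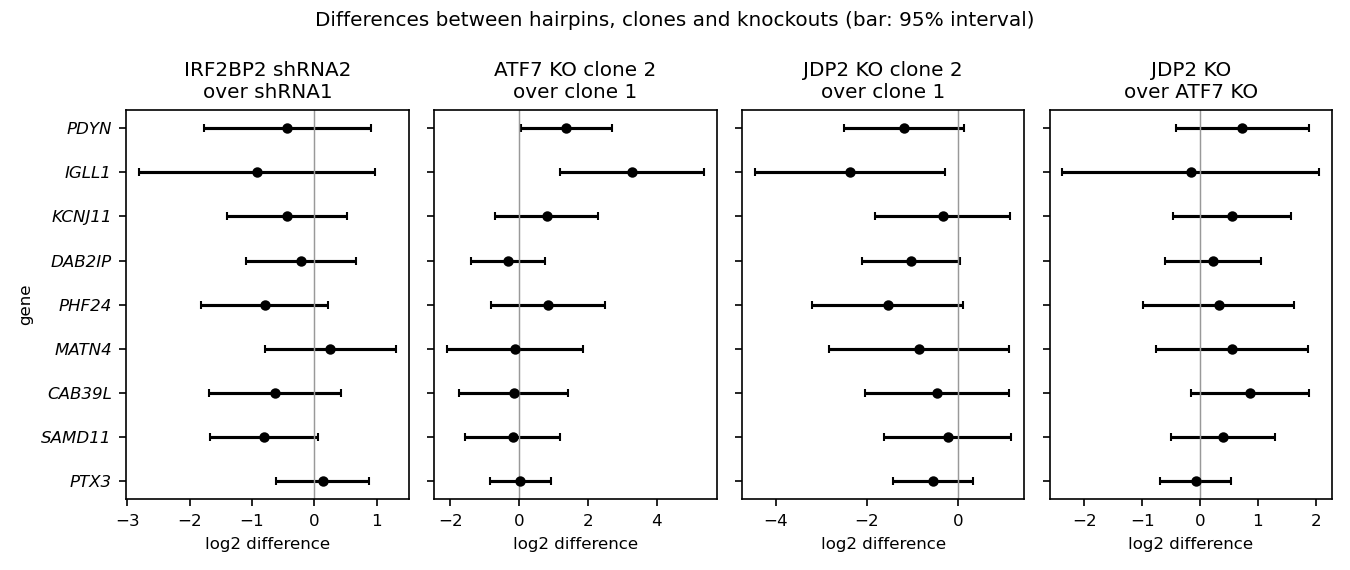
Points give the log2 difference (x axes) between hairpins, between clones of a knockout and between knockouts for each gene (y axis), and bars the 95% interval. Intervals that leave out 0 are those of IGLL1 in both clone comparisons and of PDYN between ATF7 KO clones, and 0 of the 9 genes passed the adjusted test in any panel.

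Libraries of 1 group differed widely for several of these genes in the knockout arm. IGLL1, KCNJ11 and CAB39L were higher in the library numbered 2 in 5 of 5 groups, DAB2IP in 0 of 5. The share of all genes with such a uniform direction was not determined, so these counts do not set the genes apart. The numbers are names and carry no order, and batches are not given in the labels. The within-group fold reached 9.33 for MATN4, 5.16 for IGLL1 and 3.66 for SAMD11, and was at most 1.85 for PTX3.

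Over all 19 libraries the log2 values of the 9 genes were correlated pairwise, with Pearson r from 0.23 to 0.92 over 36 pairs (median 0.76), as a description of genes chosen for 1 shared contrast. Over the 13 libraries outside the knockdown the range was -0.35 to 0.90 with a median of 0.32, and 7 pairs were below 0. MATN4 and SAMD11 had the highest r of all pairs in both sets, at 0.92 and 0.90. DAB2IP and CAB39L had the lowest, at 0.23 and -0.35.

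The genes whose levels were most like each member over the 19 libraries were, by Pearson r, KCNN2 for PDYN (0.89), KCNJ11 for IGLL1 (0.89), PHYHIP for KCNJ11 (0.95), DMTN for DAB2IP (0.94) and STAG3 for PHF24 (0.87). For the remaining members they were ACO1 for MATN4 (0.96), APOLD1 for CAB39L (0.84), PLA2G12A for SAMD11 (0.94) and WARS2 for PTX3 (0.92). RBPJL, which overlaps MATN4, ranked second for SAMD11 (0.94). Libraries share depth and treatment, so these values describe likeness and nothing about control.

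Genes related to each member by family, complex or pathway were examined in the knockdown. Of 77 listed genes, 46 passed the filter on low values, and 0 were called higher and 0 lower (limma, 1.79 percent of 12738 genes called in either direction). Their median log2 change was 0.16, beside -0.03 over all tested genes. The fold changes of the members thus had no counterpart that passed this test among the relatives, though 31 relatives were too low to test. Against all 5 controls, where 1561 genes were called in all, 4 relatives were called higher and 3 lower.

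Of the 10 opioid genes 3 were tested. The nociceptin receptor OPRL1, the most abundant of them, was at 509 ± 210.2 in the knockdown (SD, n = 6) and 585 ± 136 in shRNA control (n = 2), and the precursors PENK, POMC and PNOC were below the filter. Of 15 pre-B cell genes 8 were tested, the kinase SYK being the most abundant at 8504 ± 699 in the knockdown and 5525 ± 546 in shRNA control (adjusted p 0.378). PAX5, the B lineage identity factor, had a log2 change of -0.89 ± 0.40 (SE, adjusted p 0.348). Against all 5 controls PAX5 was called lower, at -1.27 (limma, adjusted p 0.00979). VPREB1, the partner of IGLL1, was below the filter, at 0 reads in both shRNA controls.

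Of the potassium channel subunits only ABCC8, the sulfonylurea receptor that pairs with KCNJ11, was tested. It was at 21.8 ± 37.8 in the knockdown and 2.93 ± 1.49 in shRNA control, 1 library reaching 98.4. Of the 10 Ras regulators and DAB2IP partners 9 were tested, RASAL3 being the most abundant with a log2 change of 0.81 ± 0.51 (SE). Of the G protein genes GNAI2 had 0.53 ± 0.52, and MATN1, the 1 matrilin tested beside MATN4, had -0.95 ± 0.40 (adjusted p 0.305). Against all 5 controls MATN1 was called lower, at -0.90 (limma, adjusted p 0.0375).

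Of the 11 genes around LKB1 10 were tested, and the kinase itself, STK11, had -0.32 ± 0.48. CAB39, the paralog of CAB39L, was at 3490 ± 1011 in the knockdown and 2655 ± 448 in shRNA control, a change of 0.35 ± 0.35 (SE). Of the polycomb genes BMI1 had -0.34 ± 0.37. Of the 13 pentraxin and humoral recognition genes 6 were tested, the neuronal pentraxin receptor NPTXR being the most abundant with 0.28 ± 0.41. C1QA, a complement subunit, was at 106 ± 149 in the knockdown and 1.43 ± 0.62 in shRNA control (adjusted p 0.0974), and C1QC at 50.8 ± 64.1, against 0 reads in both shRNA controls (adjusted p 0.0806). Their values ranged widely between knockdown libraries, at 9.17 to 388 for C1QA and 1.83 to 171 for C1QC. Both genes were called higher with DESeq2 (adjusted p 0.00604 for C1QA and 0.000414 for C1QC), and in limma against all 5 controls (0.0155 and 0.019) and without the libraries that stand apart (0.013 and 0.0325).

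The nearest tested genes on either side of the members numbered 17, of which 0 were called. Their median log2 change was -0.32, with a range of -1.78 to 1.44, and 11 of 17 were below 0. RBPJL, a transcription factor of the pancreas whose gene overlaps MATN4, was at 30.9 ± 8.43 in the knockdown (SD, n = 6) and 109 ± 39.5 in shRNA control (n = 2), with a change of -1.78 ± 0.46 (SE, adjusted p 0.075). DNAJB5, a heat shock protein gene 7.2 kb from PHF24, was at 223 ± 48.6 in the knockdown and 493.3 ± 64.3 in shRNA control (-1.16 ± 0.32, adjusted p 0.102). SETDB2, a methyltransferase gene next to CAB39L, had -0.98 ± 0.36 (adjusted p 0.229), and NOC2L, which overlaps SAMD11, had -0.75 ± 0.53 (adjusted p 0.58). RBPJL and DNAJB5 passed the adjusted test with DESeq2, and both and SETDB2 passed it in limma against all 5 controls or without the libraries that stand apart.

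**Figure D5:**
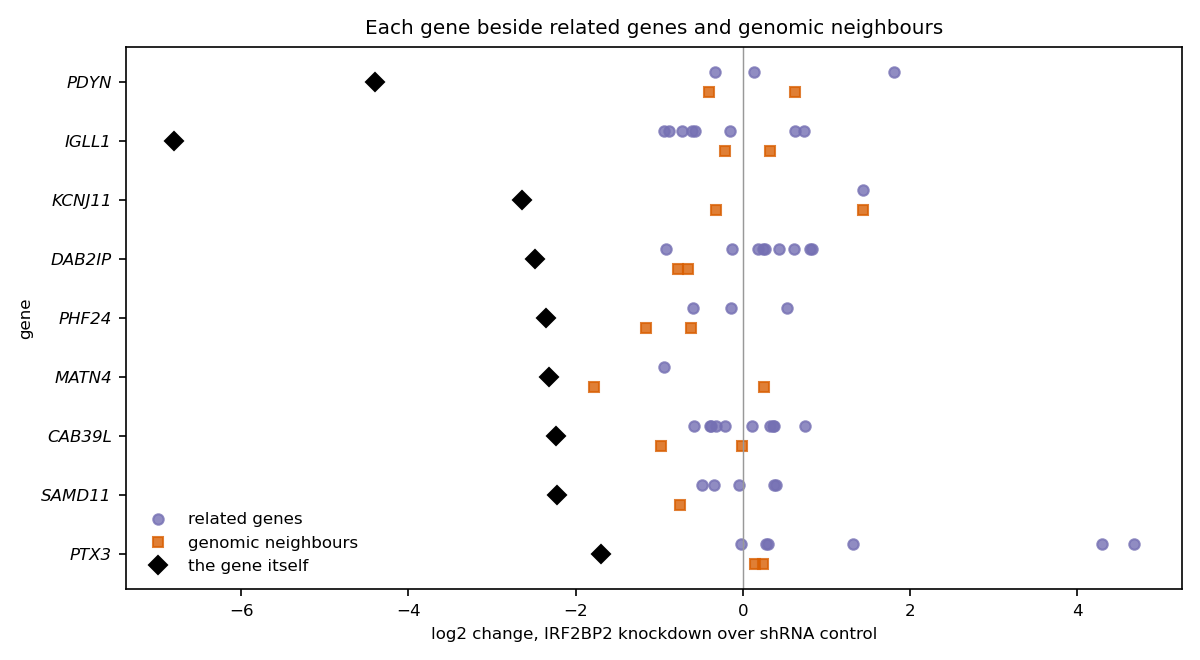
For each member (rows) the log2 change in IRF2BP2 knockdown over shRNA control (x axis) is shown for the gene itself, for the related genes that passed the filter and for its nearest tested neighbours on the chromosome. The related genes and neighbours lie between -1.78 and 4.68 and each lies to the right of its member, and 0 of them were called.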

How the data were processed

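The 9 genes and the lists of related genes, markers and motifs were chosen with earlier results of these data known. Messenger RNA of THP1 cells was sequenced in 21 labelled libraries, and the 19 with a column were used. Per the submitters' processing notes, reads were counted with featureCounts on hg38 and normalized with DESeq2 (no versions given). Aligner, annotation and strand setting were not given in the sources used here. The authors deposited DESeq2-normalized counts (a signal per gene and library), and the steps between values gave whole reads for 100 percent of 388037 values within a tolerance of 0.01. The authors' deposited tables of 3 comparisons hold each gene's log2 fold change, Wald score, p-value and adjusted p-value. The score has the opposite sign of the fold change in every row where neither is 0, so directions follow the fold change.

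Values were taken as log2(normalized count + 1), a scale that understates changes of low genes. Genes with a mean of at least 10 were tested with limma 3.58.1 (moderated statistics with a trend, two-sided, R 4.3.3), adjusted over all genes by Benjamini-Hochberg and called under 0.05. edgeR 4.0.16 and DESeq2 1.42.0 on the recovered reads, trimmed-mean (TMM) scaling, a pseudocount of 10, no filter, other control sets, a block on the replicate number and leaving out libraries were alternatives. The fits were tested on simulated counts. The 9 genes are given in every library and comparison, with their neighbours and the 3 most similar genes by correlation as the candidates named. Of related genes the most abundant of each list is named by rule. VPREB1, PAX5, ABCC8, CAB39, C1QA, C1QC and the opioid precursors were named after their values were seen. Symbols were matched to RefSeq positions and promoter windows (GRCh38.p14), of which KCNJ11 had none in the table used.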

Additional observations from a re-analysis of the deposited data

How the results depend on the processing

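The number of genes called in the knockdown, 228, was 124 with edgeR, 682 with DESeq2, 1561 against all 5 controls and 1251 without the libraries that stand apart, an alternative chosen after seeing the data. It was 11 to 609 with 1 library left out each, namely 11 (0 of them lower) and 62 (1 lower) without shRNA control replicate 1 and 3, 134 without shRNA1 replicate 2 and 609 without shRNA1 replicate 3. Related genes called higher numbered 2 with DESeq2, 4 against all 5 controls, 3 without the libraries that stand apart and 0 to 2 with 1 library left out, and those called lower 3 against all 5 controls and 1 without the libraries that stand apart. Neighbours called lower numbered 2, 3 and 3 under those 3 settings and 0 to 3 with 1 library left out, and the cause was not tested. Between hairpins DESeq2 called 25 genes and limma without the libraries that stand apart 1, with 0 to 1 when 1 library was left out. For ATF7 KO, 33 calls became 19 with no filter, 223 with DESeq2, 0 with WT among the controls, 98 without the libraries that stand apart and 0 to 23 with 1 library left out. For JDP2 KO, 89 became 53 with no filter, 526 with DESeq2, 14 with WT among the controls and 0 to 125 with 1 library left out. In both knockouts 0 genes were called without either KO control library, which leaves 1 control. JDP2 KO against ATF7 KO had 9 calls with DESeq2. ATF7 clones had 40 calls, and 22 with no filter, 26 with edgeR, 219 with DESeq2, 198 without the libraries that stand apart and 17 to 31 with 1 library left out. JDP2 clones had 18 calls, and 53 with DESeq2 and 13 to 266 with 1 library left out, 266 without clone 1 replicate 1.

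With a replicate block the calls were 209 in the knockdown, 74 for ATF7 KO, 161 for JDP2 KO, 93 between ATF7 clones and 21 between JDP2 clones. Same-numbered libraries did not deviate together throughout (r over 0.1 in 3 of 7 pairs in the knockdown arm and 8 of 20 in the knockout arm), so the numbers were not taken as pairs. In the knockout arm the libraries of a group deviate by equal and opposite amounts. Each value there is therefore counted for both replicate numbers, and its pairs are not independent. Of the 9 genes, 1 was called under any alternative in the 6 comparisons other than knockdown against shRNA control, namely IGLL1 between ATF7 clones. It was called with DESeq2 (1 gene, log2 difference 3.08) and with the replicate block (1 gene, 3.28), with an adjusted p of 0.00572 to 0.9999 over all alternatives.

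Changes of sign occurred only among differences that did not pass the test. Between hairpins DAB2IP was at 0.18 without the libraries that stand apart, and with 1 library left out DAB2IP ran from -0.52 to 0.071, MATN4 from -0.076 to 0.62 and PTX3 from -0.055 to 0.26. In ATF7 KO, KCNJ11 was at 0.075 with edgeR and 0.066 with DESeq2, PDYN at -0.15 with WT among the controls, and with 1 library left out KCNJ11 ran from -0.43 to 0.19 and DAB2IP from -0.40 to 0.68. In JDP2 KO the ranges were -0.17 to 0.91 for DAB2IP and -0.68 to 0.13 for CAB39L. Between JDP2 KO and ATF7 KO, PHF24 was at -0.23 and MATN4 at -0.13 without the libraries that stand apart, and the ranges were -1.09 to 0.66 for IGLL1, -0.043 to 0.51 for DAB2IP, -0.23 to 0.73 for PHF24, -0.13 to 0.94 for MATN4 and -0.23 to 0.16 for PTX3. Between ATF7 clones they were -0.88 to 0.24 for DAB2IP, -0.72 to 0.50 for MATN4, -0.77 to 0.46 for CAB39L, -0.72 to 0.35 for SAMD11 and -0.28 to 0.37 for PTX3. Between JDP2 clones KCNJ11 was at 0.54, MATN4 at 0.76, CAB39L at 0.37 and SAMD11 at 0.72 without the libraries that stand apart, with ranges of -1.20 to 0.54, -2.46 to 0.76, -1.29 to 0.38 and -1.15 to 0.72.

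The knockdown values of IGLL1 and PDYN rest on at most 14 reads a library, and each group of 2 libraries gives its spread little precision.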
